A study of Drosophila melanogaster with 6 samples.

Results

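The transcripts described here are the 24 most abundant ones, ribosomal proteins aside, among the genes that differed between domino (dom) knockdown and wild type cells from the Drosophila melanogaster larval brain. They were chosen by a mean normalized count of at least 50000 over the 6 libraries, out of 3326 genes for which the authors' deposited table gave an adjusted p below 0.05. Of the 77 listed genes at that level, 39 carried ribosomal protein symbols, 9 were left out by name or because they lie on chromosome 4, and 5 IDs had no symbol in the tables used here. The 24 that stayed were mt:lrRNA, HmgD, Bacc, CG10077, Hsp23, Cirl, eEF1alpha2, Rm62, Hsp27, Nrt, fne, Jupiter, Act42A, Dcr-2, Dscam2, Cam, pod1, HmgZ, osa, OtopLa, Gp93, tou, blw and E(bx).

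Living cells marked by membrane GFP were sorted from the brains of wandering larvae. The marker UAS::CD8-GFP was driven by insc::Gal4, a driver active in neural stem cells (neuroblasts). In the dom knockdown (3 libraries) the same driver also expressed the hairpin UAS::dom-RNAi, brought in by w1118; UAS::dom-RNAi males. In wild type (3 libraries) the males were w1118 and no hairpin was present. Flies of both genotypes carried the driver, the GFP marker and, as a further transgene, UAS::Dcr-2, which strengthens RNA interference. GFP outlasts driver activity, so such a sort also takes young progeny, and in a sorted bulk sample fewer cells of a type and less RNA per cell cannot be told apart. The labels do not tell whether the repeated sorts used different larvae, so the p-values measure only the spread between these samples, which may be technical.

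Abundant messages belong to the housekeeping of a cell. They encode the machines of translation, folding, energy supply and the cytoskeleton, and the proteins that package the genome. In growing neural tissue they also include adhesion molecules of the young axon and RNA-binding proteins that are switched on as neurons are born. Domino is the ATPase of a remodelling complex that places the histone variant H2Av into chromatin, and the hairpin against it is the one genetic difference that the labels name.

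Of the 24 transcripts, 10 were higher and 14 lower in the knockdown than in wild type in the authors' deposited table. All 24 passed the authors' threshold because passing it put a gene in the table. That count is therefore a description, and it stands beside a background of 28.0% of 11859 tested genes passing, 13.9% as higher and 14.2% as lower. The same background holds for every count of listed genes below. Among all listed genes 49.5% were higher, and among the 85 genes listed at means from 25000 to 50000, under the same exclusions, 31.8% were. Most changes were small. Taken without its sign, the log2 ratio of the authors' deposited table had a median of 0.40 in the 24 transcripts, 0.35 in those 85 genes and 0.61 over all listed genes. The adjusted p-values below are those of the authors' DESeq2 test. A single member, eEF1alpha2, changed by at least 2-fold, 6 changed by at least 1.5-fold and 8 by less than 1.25-fold. All log2 ratios were also shifted by 0.1, as another scaling could bring. After an upward shift 7 of the lower ones no longer passed, and after a downward one 5 of the higher ones. Such a shift could not change a direction, because the ratio nearest to 0 among the 24 was 0.19 (Gp93).

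**Figure D1:**
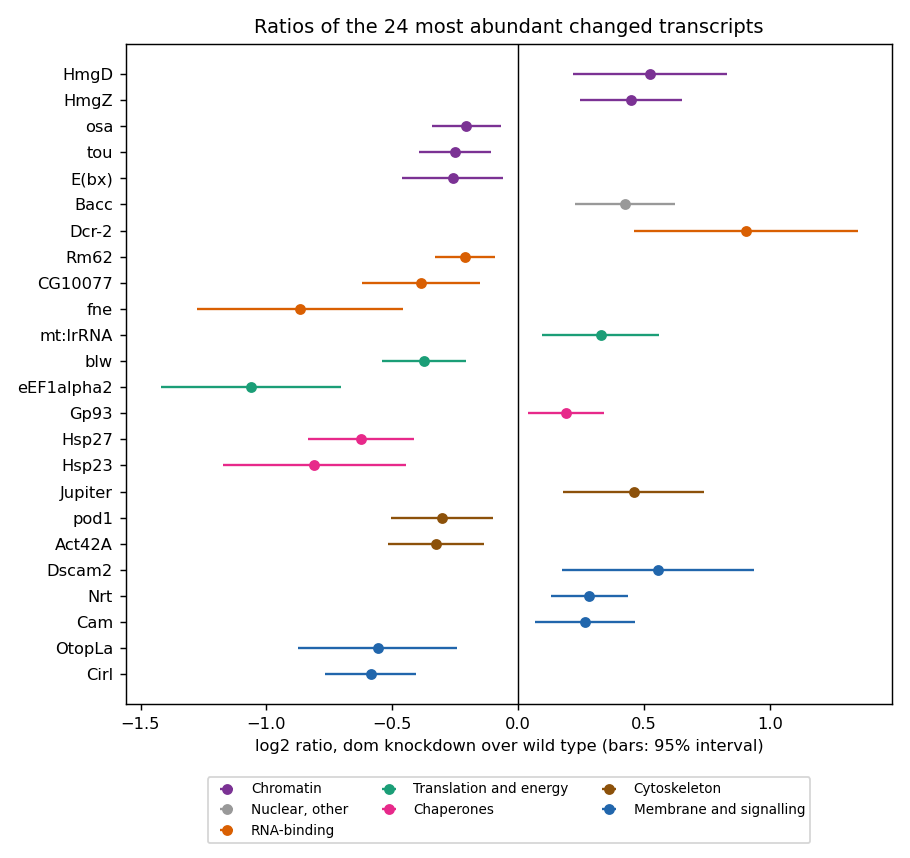
Log2 ratios of dom knockdown over wild type for the 24 transcripts (points), grouped by the role of their products, with 95% intervals from the authors' standard errors (bars). Ratios run from -1.06 for eEF1alpha2 to 0.90 for Dcr-2, and every role with more than 1 member holds ratios of both signs.

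The deposited log2 ratio is named with the control first. Its sign was turned here to give knockdown over wild type, in which dom itself was lower (log2 -0.58, SE 0.11) and the transgene marker gene w higher (log2 1.32, SE 0.13) in the authors' deposited table. Were the order in the header the reverse, every direction below would swap. The table gives no value per library, so whether the 3 libraries of a genotype overlap those of the other was not examined. To show levels, a normalized count for each genotype was computed that returns both the deposited mean and the deposited ratio when the 2 genotypes weigh equally. These implied levels have no error of their own, and a ratio that the authors had shrunken would make them too close together.

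The chromatin genes came in 2 groups. HmgD and HmgZ, which encode high mobility group proteins that bend DNA and bind between nucleosomes, were both higher in the knockdown. HmgD (2R:21701458-21716727, dm6, plus strand) had an implied level of 273522 normalized counts in knockdown cells, against 190365 in wild type cells. By the authors' deposited table the ratio was 1.44-fold (log2 0.52, 0.16 standard error, adjusted p 0.00478). HmgZ (2R:21697488-21707861, minus strand) had an implied 76813 normalized counts in knockdown cells and 56295 in wild type cells. The authors' deposited table gave it a ratio of 1.36-fold (log2 0.45, 0.10 standard error, adjusted p 1.47e-04). The spans of both genes overlap by 6404 bp on opposite strands, but their annotated exons share no base.

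The genes for 3 large subunits of chromatin remodelling complexes were lower, each by a small step. The E(bx) product is the largest subunit of the NURF complex, tou encodes a partner of the remodeller ISWI, and osa a DNA-binding subunit of a Brahma complex. In the authors' deposited table the log2 ratios were -0.26 (standard error 0.10) for E(bx), -0.25 (standard error 0.07) for tou and -0.21 (standard error 0.07) for osa. The implied level of E(bx) was 46011 normalized counts in knockdown cells and 55137 in wild type cells, and its mean was the smallest of the 24. For tou the implied levels were 50331 in knockdown cells and 59889 in wild type cells, and for osa 56534 in knockdown cells and 65200 in wild type cells. The ATPases they work with were also listed as lower, with Iswi at a log2 ratio of -0.59 and brm at -0.29 by the authors' deposited table. So were the remodellers kis at -0.40 and Mi-2 at -0.45 in the authors' deposited table. Listed genes just below this abundance were mostly lower too: of the 85 with means from 25000 to 50000, 58 were lower, with a median of -0.27. The 3 subunit genes are also long, and of the 7 members with exons over 7000 bp, 6 were lower. Whether remodeller genes fell more than other long and abundant genes was not tested. Of 30 abundant chromatin and nuclear protein genes in a list drawn up for this comparison, which holds HmgD and HmgZ but not the 3 subunits, 6 were listed, 2 higher and 4 lower. The share listed lay below the 28.0% of all tested genes. The higher ones were HmgD and HmgZ themselves. The lower ones were His4r, which encodes histone H4, the chromatin chaperone gene Nlp, Top1 and the heterochromatin gene Su(var)3-7, with log2 ratios from -0.39 to -0.33 in the authors' deposited table.

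Bacc (Bacchus) encodes a nuclear protein known from studies of how flies respond to ethanol. Its mean was the third highest of the 24. Its implied level was 187045 normalized counts in knockdown cells, against 139561 in wild type cells. The deposited ratio was 1.34-fold (log2 0.42, 0.10 standard error, adjusted p 2.86e-04 in the authors' deposited table).

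RNA-binding proteins made up 4 of the 24, and 3 of them were lower. The gene fne encodes an ELAV family protein that marks neurons and acts in alternative splicing and polyadenylation. It had an implied level of 66221 normalized counts in knockdown cells, against 120804 in wild type cells, with a log2 ratio of -0.87 in the authors' deposited table (0.21 standard error, adjusted p 2.80e-04). The 2 DEAD-box RNA helicase genes fell less: CG10077 had a log2 ratio of -0.39 (standard error 0.12) and Rm62 one of -0.21 (standard error 0.06) in the authors' deposited table. CG10077 had an implied 108609 normalized counts in knockdown cells and 142037 in wild type cells. The implied level of Rm62 was 98420 normalized counts in knockdown cells and 113966 in wild type cells, with the smallest standard error of the 24. In a list of 42 RNA-binding and splicing factor genes, 11 were listed, 1 higher and 10 lower, with a median log2 ratio of -0.34. The share listed lay near the 28.0% of all tested genes. Listed genes with means from 10000 to 25000, a range that holds only some of the 11, were mostly lower too. Of these 293 genes 225 were lower, with a median of -0.31, against -0.20 over all listed genes. Besides Rm62 and fne, the 11 listed RNA-binding genes included larp at -0.51 and Fmr1, the fly homologue of the fragile X gene, at -0.34. The higher one was the SR protein gene x16, at 0.27 in the authors' deposited table, which also gave the other 2 ratios.

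The exception among the 4 was Dcr-2 (2R:17574979-17581525, minus strand), the Dicer of the RNA interference pathway. Both genotypes carried it as a transgene under the same driver, and reads of the transgene and of the resident gene cannot be told apart in these values. Dcr-2 had an implied level of 95720 normalized counts in knockdown cells and 51159 in wild type cells, the largest relative increase of the 24. Its log2 ratio of 0.90 in the authors' deposited table also had the largest standard error of the group, 0.23 (DESeq2 adjusted p 5.36e-04). The 95% interval ran from 0.46 to 1.35.

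Of 20 neuron markers, fne among them, 8 were listed, 7 lower and 1 higher, the ligand gene jeb at a log2 ratio of 0.54 in the authors' deposited table. Without fne, the implied levels of the other 7 summed to 145024 normalized counts in knockdown cells and 212472 in wild type cells. The other lower ones included the synaptic genes Syt1 (log2 -0.60) and cpx (log2 -0.54), and Rbp9, also of the ELAV family (log2 -2.71), in the authors' deposited table. Of 12 neuroblast markers 6 were listed, 5 higher and 1 lower, with implied levels summing to 43658 normalized counts in knockdown cells and 31398 in wild type cells. The gene wor, a Snail family factor of neuroblasts, was among the higher ones (log2 0.61, standard error 0.23). The lower one was grh (log2 -0.79, standard error 0.31), both in the authors' deposited table. Ganglion mother cells are the direct progeny of neuroblasts. Of 8 genes in a list drawn up for them and for newborn neurons 7 were listed. Not all of the 8, erm and D among them, are specific to these cells. The genes nerfin-1, dap, erm, tap and D were higher, with log2 ratios from 0.38 to 0.81 in the authors' deposited table. The other 2 were lower, and the authors' deposited table had pros at -1.78 and sens-2 at -1.31 on that scale. The 7 summed to 358666 normalized counts in knockdown cells and 717124 in wild type cells, most of it from pros. Of 17 glia markers 4 were listed, all higher, with sums of 10355 in knockdown cells and 5778 in wild type cells. Of 12 hemocyte markers 5 were listed, all lower, with sums of 5409 in knockdown cells and 10511 in wild type cells. Beside these counts, 28.0% of all tested genes were listed, 13.9% as higher and 14.2% as lower. The share listed lay below 28.0% for the glia markers and above it for the other lists. Of the 293 listed genes with means from 10000 to 25000, 225 were lower. Whether a different makeup of the sorted cells takes part in the ratios of the 24 transcripts was not tested.

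**Figure D2:**
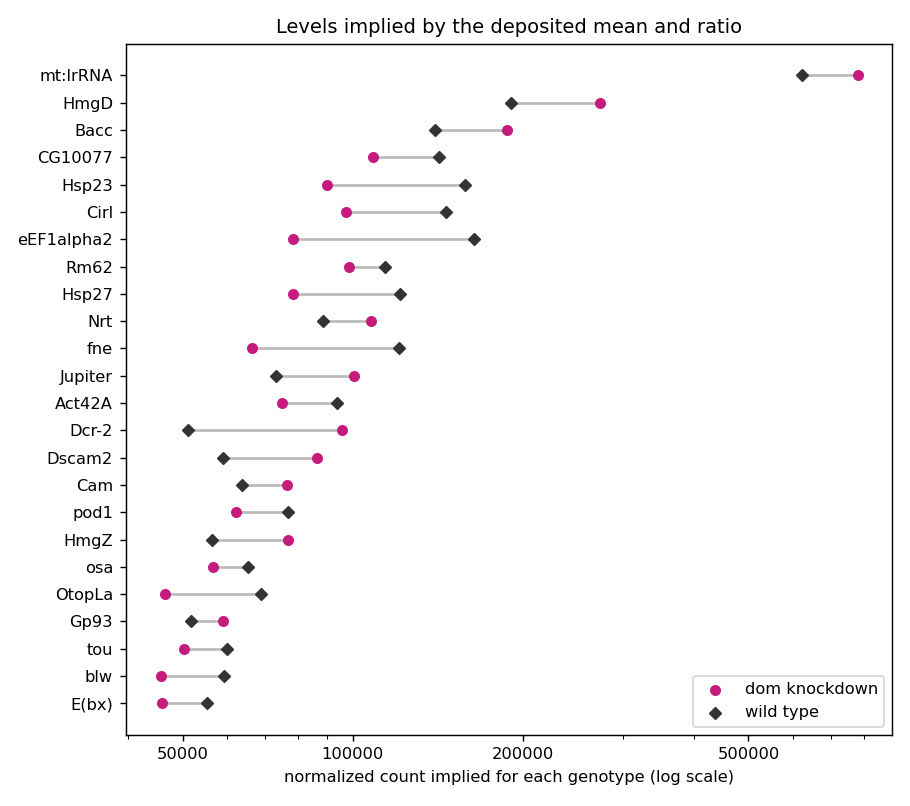
Normalized counts implied for dom knockdown (circles) and wild type (diamonds) by the deposited mean and ratio of each transcript, on a log axis, with genes ordered by their mean. The pair of points lies widest apart for eEF1alpha2 (78494 in knockdown and 163835 in wild type) and Dcr-2 (95720 and 51159), and the points carry no error.

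Of the 3 transcripts for translation and energy supply, 2 were lower. eEF1alpha2 (3R:31738468-31743306, plus strand) is one of the genes for elongation factor 1 alpha, which brings aminoacyl-tRNA to the ribosome. Its implied level was 78494 normalized counts in knockdown cells, against 163835 in wild type cells. Its ratio was farthest from 1 of the 24, at 0.479-fold (log2 -1.06, 0.18 standard error, adjusted p 1.45e-07 in the authors' deposited table). Genes for this factor are near copies of each other, so some reads may have been lost or shared between them. Of 9 elongation and release factor genes at least 2 were listed. No value is given for eEF1alpha1, which was not found under its current symbol in a table where 62 IDs had none. The fall of eEF1alpha2 therefore does not tell whether message for elongation factor 1 alpha as a whole was lower. Besides eEF1alpha2, eEF1delta was found, higher at a log2 ratio of 0.31 (standard error 0.10) in the authors' deposited table. For comparison, the 39 ribosomal protein genes of the same abundance were all higher, with log2 ratios from 0.25 to 0.54 in the authors' deposited table. The gene eEF1alpha2 stood on the other side of 0 from them. That contrast is for eEF1alpha2 alone, since another gene for the factor may be among the IDs without a symbol. The most abundant of these IDs (mean 378427) was higher, at a log2 ratio of 0.38 (standard error 0.13) in the authors' deposited table.

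The gene blw encodes the alpha subunit of the mitochondrial ATP synthase. It had an implied 45733 normalized counts in knockdown cells and 59302 in wild type cells, with a log2 ratio of -0.37 in the authors' deposited table (0.08 standard error, adjusted p 1.05e-04). In the list of 18 ion pump and nucleotide carrier genes that holds blw, 6 were listed and all 6 were lower, with a median log2 ratio of -0.36. The share listed lay near the 28.0% of all tested genes. Of the 293 listed genes with means from 10000 to 25000, 225 were lower too, with a median of -0.31. The 6 were not tested as a set. These 6 included 4 subunits of the vacuolar proton pump, Vha16-1, Vha100-1, Vha55 and VhaSFD, with log2 ratios from -0.40 to -0.23 in the authors' deposited table.

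mt:lrRNA, the large ribosomal RNA of the mitochondrion, is encoded in the mitochondrial genome and had the highest mean of all listed genes. Its implied level was 779612 normalized counts in knockdown cells, against 621257 in wild type cells. The ratio was 1.25-fold in the authors' deposited table (log2 0.33, 0.12 standard error, adjusted p 0.0239). It was 1 of 2 mitochondrially encoded genes found among 15, a share below the 28.0% of all tested genes. The other, mt:Cyt-b, had almost the same ratio (log2 0.33, SE 0.12) in the authors' deposited table. How much RNA without a poly(A) tail the libraries kept is not given in the sources used here, and its part in the level of a ribosomal RNA was not tested.

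The abundant chaperones were the small heat shock proteins Hsp23 and Hsp27, which hold unfolded proteins without ATP, and Gp93, the Hsp90 of the endoplasmic reticulum. Hsp23 (3L:9381882-9382765, plus strand) had an implied 89903 normalized counts in knockdown cells, against 157565 in wild type cells. Its deposited ratio was 0.571-fold (log2 -0.81, 0.18 standard error, adjusted p 1.21e-04 in the authors' deposited table). Hsp27 (3L:9384063-9385694, plus strand) had an implied 78504 normalized counts in knockdown cells, against 121051 in wild type cells. The authors' deposited table gave it a ratio of 0.649-fold (log2 -0.62, 0.11 standard error, adjusted p 1.23e-07). Gp93 had an implied 58940 normalized counts in knockdown cells and 51725 in wild type cells. It was higher by the smallest step of the 24, 1.14-fold, and lay closest to the threshold (log2 0.19, 0.08 standard error, adjusted p 0.0497 in the authors' deposited table).

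Hsp23 and Hsp27 are neighbours, 1297 bp apart. Of 12 annotated genes within 10 kb of Hsp23, 4 were listed and all 4 were lower, where 28.0% of all tested genes were listed. Apart from Hsp27 these were the small heat shock genes Hsp67Ba at a log2 ratio of -1.81 (standard error 0.19) and Hsp67Bc at -0.60 (standard error 0.19), and asRNA:CR43481 at -0.47 (standard error 0.17), in the authors' deposited table. The span of asRNA:CR43481 (mean 311) overlaps that of Hsp67Ba (mean 3831) on the opposite strand. The strand setting of the authors' counting is not given, so asRNA:CR43481 may not be a separate lower neighbour. Of the Hsp70 genes, whose values were seen before they were chosen, Hsp70Bb was higher at a log2 ratio of 1.77 (standard error 0.17) and its near copy Hsp70Ba lower at -1.31 (standard error 0.50) in the authors' deposited table. Reads of such near copies may have been split between them, so both values are uncertain. Of 28 cytosolic and endoplasmic reticulum chaperone genes 6 were listed, 3 higher and 3 lower, a share below the 28.0% of all tested genes. CCT7, a subunit of the ring-shaped folding complex of the cytosol, was the other lower one (log2 -0.40 in the authors' deposited table). CaBP1 and Hsp60A were the other higher ones (log2 0.20 and 0.35 in the authors' deposited table).

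**Figure D3:**
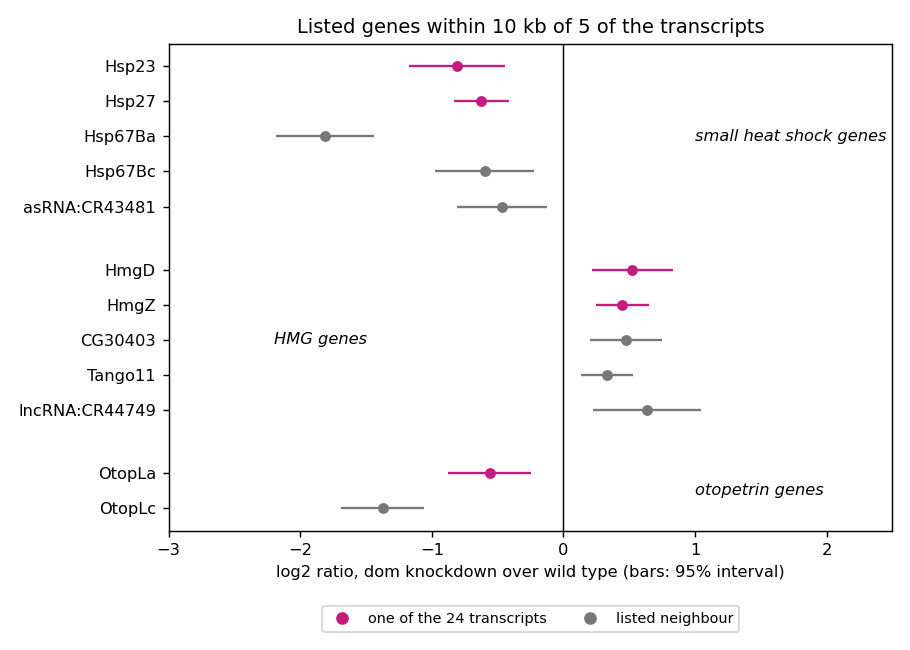
Log2 ratios of dom knockdown over wild type for listed genes within 10 kb of Hsp23, Hsp27, HmgD, HmgZ or OtopLa, with 95% intervals (bars). The 5 ratios around the small heat shock genes lie between -1.81 and -0.47, the 5 around the HMG genes between 0.33 and 0.64, and those of OtopLa and OtopLc at -0.56 and -1.37. Some of these genes overlap on opposite strands, so their ratios may not be separate.

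Of 9 annotated genes within 10 kb of HmgD, 4 were listed and all 4 were higher. Besides HmgZ they were Tango11, a gene with a part in Golgi organisation, at a log2 ratio of 0.33 (standard error 0.10), CG30403 at 0.48 (standard error 0.14) and lncRNA:CR44749 at 0.64 (standard error 0.21) in the authors' deposited table. CG30403 and lncRNA:CR44749 lie within the span of HmgD on the opposite strand. The strand setting of the authors' counting is not given in the sources used here, so reads of these genes and unspliced reads of HmgD cannot be told apart. Not every member had such neighbours. Around osa 4 genes were listed, all higher while osa was lower, and around Dcr-2 3 were listed, all lower while Dcr-2 was higher. Whether neighbours share a direction more often than other genes was not tested.

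Of the cytoskeletal genes, Act42A and pod1 were lower and Jupiter was higher. Act42A encodes one of the cytoplasmic actins, and pod1 a coronin family protein that joins actin to microtubules in growing axons. Act42A had an implied level of 74822 normalized counts in knockdown cells and 93927 in wild type cells, with a log2 ratio of -0.33 in the authors' deposited table (0.10 standard error, adjusted p 0.00432). Actin genes are near copies of each other, so the value of Act42A may include or lack reads of others. The implied level of pod1 was 62212 normalized counts in knockdown cells and 76735 in wild type cells. For pod1 the log2 ratio was -0.30 in the authors' deposited table (0.10 standard error, adjusted p 0.0147). Jupiter encodes a protein that coats microtubules, and it had an implied 100594 normalized counts in knockdown cells and 73184 in wild type cells (log2 0.46, 0.14 standard error, adjusted p 0.00700 in the authors' deposited table).

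Most listed actin genes were lower, Act42A and pod1 among them. Of 28 genes of the actin cytoskeleton 11 were listed, 1 higher and 10 lower, with Act42A and pod1 counted. Their median log2 ratio was -0.33, beside -0.31 in the 293 listed genes with means from 10000 to 25000 and -0.20 over all listed genes. Without Act42A and pod1, 9 were listed, and their implied levels summed to 169281 normalized counts in knockdown cells and 216831 in wild type cells. The lower ones included the fascin gene sn at -0.66, the actin recycling gene capt at -0.51 and Moe, which ties actin to the membrane, at -0.33, and the higher one was the myosin gene jar at 0.33, in the authors' deposited table. Of 20 tubulin and microtubule genes 3 were listed, a share below the 28.0% of all tested genes. The stathmin gene stai was higher at a log2 ratio of 0.28, and Dhc64C, the heavy chain of cytoplasmic dynein, and Mapmodulin were lower at -0.50 and -0.49 in the authors' deposited table.

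Membrane or signalling proteins were encoded by 5 of the transcripts, and the 2 cell adhesion molecules among them were both higher. Dscam2 encodes an immunoglobulin superfamily receptor by which neurites recognise and repel like neurites. It had an implied level of 86478 normalized counts in knockdown cells, against 58843 in wild type cells (log2 0.56, 0.19 standard error, adjusted p 0.0191 in the authors' deposited table). Nrt encodes Neurotactin, an adhesion protein of young axons. Its implied level was 107786 normalized counts in knockdown cells, against 88688 in wild type cells (log2 0.28, 0.08 standard error, adjusted p 0.00205 in the authors' deposited table). For Nrt, 21.8% of its exon bases are shared with mus302 on the opposite strand, the largest share of the 24, and 18 members share none. Of 32 adhesion and growth cone genes 13 were listed, 12 higher and 1 lower, with a median log2 ratio of 0.46, Nrt and Dscam2 counted. Without Nrt and Dscam2, 11 were listed, and their implied levels summed to 143898 normalized counts in knockdown cells and 109116 in wild type cells. The share listed lay above the 28.0% of all tested genes. Of all listed genes 49.5% were higher. The share higher was 31.8% at means from 25000 to 50000, 23.2% from 10000 to 25000 and 52.1% under 10000. The 13 were not tested as a set. Lac, caps and shg, the E-cadherin gene, were higher at log2 ratios of 0.66, 0.40 and 0.46, while the authors' deposited table had robo1, the receptor for Slit, at -0.32.

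Cirl and OtopLa were lower. Cirl encodes the fly latrophilin, an adhesion G protein-coupled receptor that tunes mechanosensory neurons. It had an implied 97341 normalized counts in knockdown cells, against 146163 in wild type cells. Its adjusted p was the smallest of the 24 (log2 -0.59, 0.09 standard error, adjusted p 4.97e-09 in the authors' deposited table). OtopLa encodes an otopetrin proton channel known from the taste of acids. It had an implied 46644 normalized counts in knockdown cells and 68713 in wild type cells (log2 -0.56, 0.16 standard error, adjusted p 0.00324 in the authors' deposited table). Next to it on X, the related OtopLc was lower by more, at a log2 ratio of -1.37 (standard error 0.16) in the authors' deposited table.

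Cam, the gene for the calcium sensor calmodulin, was slightly higher, with an implied 76412 normalized counts in knockdown cells and 63564 in wild type cells. The authors' deposited table gave Cam a log2 ratio of 0.27 (0.10 standard error, adjusted p 0.0336). Of 24 genes for signalling adaptors and kinases 3 were listed, a share below the 28.0% of all tested genes. Besides Cam these were the small GTPase genes Cdc42 and Rac1, lower with -0.22 and -0.29 as log2 ratios in the authors' deposited table.

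Summed over the 24 transcripts, the implied levels came to 2842700 normalized counts in knockdown cells and 2838965 in wild type cells. The 10 higher ones summed to 1842922 in knockdown cells and 1394641 in wild type cells, and the 14 lower ones to 999777 in knockdown cells and 1444324 in wild type cells. Most of the gain lay in mt:lrRNA (158354), HmgD (83157), Bacc (47484) and Dcr-2 (44562), each the implied knockdown level minus the wild type level in normalized counts. On the same scale the largest losses were -85341 for eEF1alpha2, -67662 for Hsp23 and -54583 for fne.

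**Figure D4:**
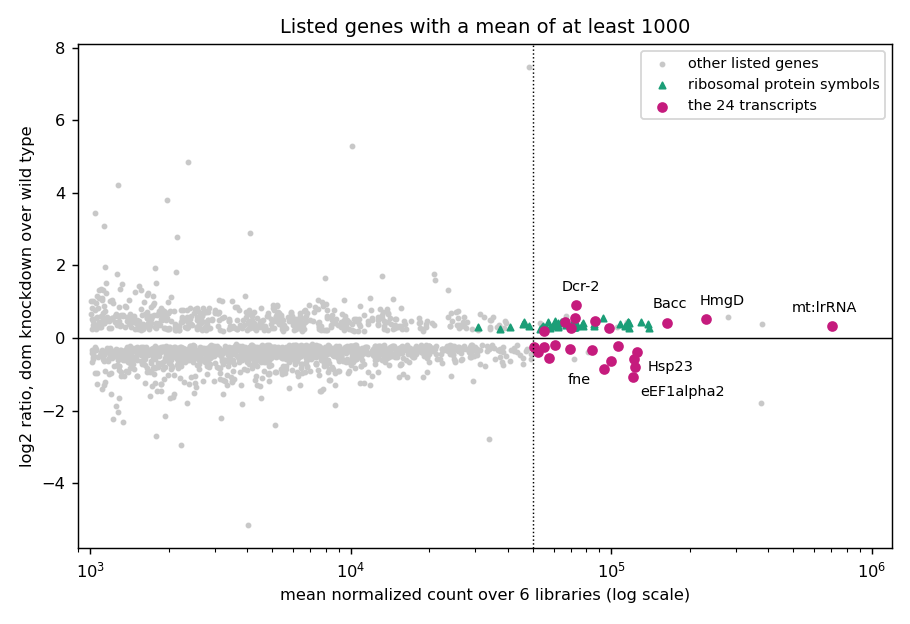
Log2 ratio of dom knockdown over wild type against the mean normalized count (log axis) for genes listed at a mean of 1000 or more. The dotted line marks 50000. The 24 transcripts lie between -1.06 and 0.90 on both sides of 0, while the ribosomal protein symbols right of the line all lie between 0.25 and 0.54.

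Longer messages yield more fragments, so levels were compared between genes per length. Per kilobase of merged exon, mt:lrRNA led with 529029 normalized counts, followed by Hsp23 with 139970, HmgD with 118037, Hsp27 with 61138 and Bacc with 60082. The lowest were tou with 4250, E(bx) with 5021, Dscam2 with 5630 and osa with 5676 normalized counts per kilobase. This order depended on the gene model. With the longest transcript in place of merged exons, HmgD had 155146 and Hsp23 139970 normalized counts per kilobase, and Bacc (64700) also stood above Hsp27 (61138). Without values per library the spread around these levels is unknown. Of the 24 listed genes with the highest level per length under the same exclusions, 14 were among the 24 described here.

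**Figure D5:**
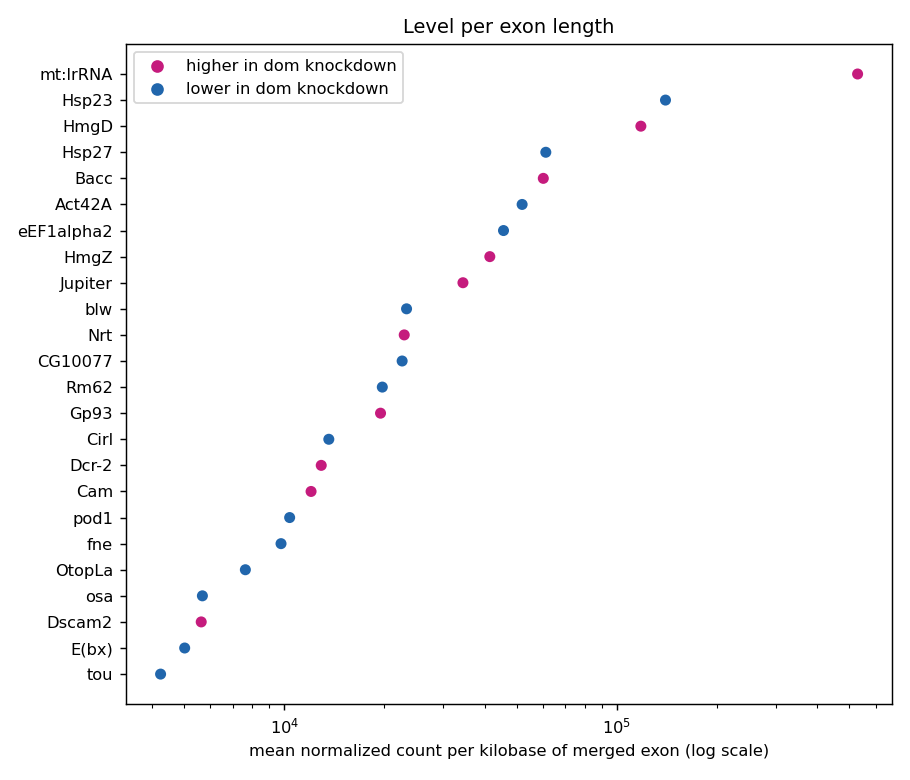
Mean normalized count per kilobase of merged exon (log axis) for the 24 transcripts, coloured by whether the transcript was higher or lower in dom knockdown. Values run from 4250 for tou to 529029 for mt:lrRNA, and both colours occur along the whole range.

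The gene models differed widely within the group. Merged exons spanned 884 bp in Hsp23 and 12968 bp in tou, with a median of 4834 bp, against 2322 bp over all listed genes. The 10 higher transcripts had a median of 2780 bp and the 14 lower ones 6116 bp. Of the 7 members over 7000 bp, Dscam2 was higher and 6 were lower. Of the 11 under 3000 bp, 6 were higher and 5 lower. As a description over 24 genes, the log2 ratio and the log10 exon length had a Pearson r of -0.04 and a Spearman rho of -0.02. The short genes Hsp23, Hsp27 and eEF1alpha2 were among those of the 24 with the lowest ratios. All of the 24 but mt:lrRNA were protein coding, 7 had 10 or more introns in the annotated model with the most introns, and 4 had at most 1 intron.

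By chromosome arm, 8 of the 24 lay on 2R, 6 on 3L, 5 on 3R, 3 on X and 1 on 2L, beside mt:lrRNA. That put 33.3% of them on 2R, where 19.5% of all listed genes lay, and 4 of the 8 were higher. All 3 on X, namely fne, pod1 and OtopLa, were lower, where 49.8% of the listed genes of X, at any mean, were higher. Abundant listed genes were less often higher on all arms together, with 31.8% at means from 25000 to 50000 under the same exclusions. Whether X differs from the other arms was not tested.

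The standard errors had a median of 0.10, the same as in the 85 genes from 25000 to 50000. For 7 members they were at least 0.15: Dcr-2, fne, Dscam2, Hsp23, eEF1alpha2, OtopLa and HmgD. Under the same exclusions, the members nearest to the mean of 50000 were E(bx), blw and tou, at means of 50574, 52518 and 55110 normalized counts. Just below it were Unr, an RNA-binding protein gene, at 49959 with a log2 ratio of -0.26, dom itself at 49082, and the capsid gene Arc1 at 48485 with a log2 ratio of 7.47, in the authors' deposited table. Arc1 was 177-fold higher in the knockdown, so a mean over both genotypes can rest on 1 of them.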

How the data were processed

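RNA of sorted larval brain cells was sequenced in 6 libraries, 3 dom knockdown and 3 wild type, grouped by their titles. Per the submitters' processing notes, the authors worked on build dm6 with DESeq2 (version not stated), HTSeq 0.6.1, STAR 2.3.0e, SAMtools 0.1.19 and FastQC 0.11.2. The role of each tool, the strand setting and the annotation release were not given in the sources used here. Per the file headers, the authors deposited per gene its mean normalized count (a signal, at least 0), a log2 ratio with standard error, the Wald statistic, and p-values before and after adjustment. The table held 1 comparison and only genes with an adjusted p up to 0.0499. It held no values per library, so depth per library is unknown.

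The UTF-7 table was decoded, and ratios were turned to knockdown over wild type. Benjamini-Hochberg ranks gave 11859 tests, exactly (within 0.01) in 2883 rows. On 5 simulated tables of 12000 genes this step returned the true number in 5. Intervals are 95% normal limits from the authors' standard error. Symbols matched 3264 IDs and not the other 62, so counts within lists are minimums. Positions (1-based) and exons came from Ensembl release 115, assembly BDGP6.54, which has dm6 coordinates. Python 3.11.15, pandas 2.3.3 and SciPy 1.17.1 were used.

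The transcripts and gene lists were chosen with earlier results of these data known. The rule for named genes took every member, the 3 listed genes on either side of the mean of 50000 and up to 4 listed genes per list by mean; other names, including listed neighbours, were chosen after their values were seen. Lists were described by counts and medians without a test. The alternatives were other limits on the mean and the adjusted p, means per length, ratios shifted by 0.1, and IDs or genes left out by name counted. Base composition and promoter motifs were planned but not analysed here, because no sequence was used.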

Additional observations from a re-analysis of the deposited data

How the results depend on the processing

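Against 10 higher and 14 lower transcripts, a mean of at least 25000 gave 37 and 72, and one of at least 100000 gave 3 and 5. An adjusted p below 0.01 left 6 higher ones (and 11 lower), and one below 0.001 left 3 and 6. Counting the genes left out by name as well, an alternative chosen after seeing the data, gave 52 higher and 20 lower. Adding 0.1 to all log2 ratios, in place of another centring, left 7 lower ones passing, and subtracting 0.1 left 5 higher ones. Over all listed genes still passing, 59.9% and 41.7% were higher, against 49.5% without a shift. CG10077, Rm62, Act42A, pod1, osa, tou and E(bx) no longer passed after the first shift, and mt:lrRNA, Nrt, Dscam2, Cam and Gp93 after the second; no ratio changed sign. The median level per kilobase was 21167 normalized counts with merged exons and 23473 with the longest transcript. Ranking by level per length (11 and 13) and counting the 5 IDs without a symbol, chosen after seeing the data (15 and 14), kept both counts within 1.5 times. Leaving out members with over 50% shared exon bases removed none, because the largest share was 21.8% (Nrt). That setting therefore could not change the counts of 10 and 14. By construction the other limits keep more, fewer or other genes, and a shift moves each ratio toward or away from 0.

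No paired analysis was possible because the table holds no values per library. Leaving out each replicate in turn, a replicate block and the promoter motif windows were not run for want of such values and of sequence. Depth per library is unknown, so precision rests on the authors' standard errors.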

Other observations

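The 5 IDs without a symbol in the tables used here had means from 53208 to 378427 normalized counts and were all higher in the knockdown, with log2 ratios from 0.30 to 0.42 in the authors' deposited table. Whether the limit on gene symbols would have kept them is not known.

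The 9 genes left out by name or by their place on chromosome 4 at this abundance were 3 higher and 6 lower. The histone variant genes His3.3B and His2Av were higher, like HmgD and HmgZ, and the authors' deposited table gave log2 ratios of 0.58 for His3.3B (SE 0.12) and 0.60 for His2Av (SE 0.15). The chromosome 4 genes unc-13, which primes synaptic vesicles, and gw, which silences messages bound by Argonaute, were lower, and the authors' deposited table gave log2 ratios of -0.57 for unc-13 (SE 0.15) and -0.29 for gw (SE 0.09).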
